A study of Mus musculus with 24 samples.

Results

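The genes described here are 48 genes of the cell cycle and of DNA replication, read out in the hearts of mice with and without pressure overload and with and without inhaled benzene. They were taken by symbol from the 25229 gene symbols of the count table, and all 48 were found there. By role they are 6 regulators of G1 and of entry into S phase (cyclins D and E, E2f1 and E2f8), 14 genes of DNA replication and nucleotide supply, 25 genes of mitosis and cytokinesis, and 3 genes of chromatin and tubulin (Stmn1, Hmgb2 and Smc2). Of these, 47 were abundant enough to be tested among 13571 genes.

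The samples were male C57BL/6 mice. Each had either transverse aortic constriction (TAC), a band on the aorta that raises the load on the ventricle, or sham surgery. After 1 week they were placed in HEPA filtered air or in benzene at 50 ppm, with daily sessions of 6 hours on 5 days of each week, over 6 weeks. The groups, with 6 libraries each, are sham surgery in air (Sham/Air), sham surgery in benzene (Sham/Benzene), TAC in air (TAC/Air) and TAC in benzene (TAC/Benzene). All groups share the strain, sex, tissue (left ventricle with septum) and week of recovery, and the age of the mice is not given in the sources used here. The labels do not say which mouse gave which library, so p-values measure the spread between these samples only. The tissue was sequenced in bulk, so more cycling cells and more transcript per cell cannot be told apart.

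A dividing cell passes G1, copies its DNA in S phase and separates the copies in mitosis. D-type cyclins and E2F factors switch on the replication genes at the border of G1 and S phase, whereas the mitotic genes are switched on later by complexes that include B-Myb and FoxM1. Cardiomyocytes of the adult mouse rarely divide, while fibroblasts, endothelial cells and immune cells of the heart can enter the cycle under load.

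The promoters of the members are shown first, because replication and mitotic genes are known to carry different control elements. RefSeq promoter windows (GRCm38.p6, 250 bases before to 50 after the annotated start) were matched by symbol for 37 of the 48 members. Windows were not matched for Ccnd1, Ccnd2, Ccne2, Mcm4, Gins2, Ccna2, Aurkb, Kif20a, Tpx2, Foxm1 and Stmn1. Motifs of 3 kinds were searched on both strands. The cell cycle genes homology region (CHR) was taken as TTTGAA or TTTAAA, the E2F-like site as TTTCCCGC, TTTCGCGC, TTTGCCGC or TTTGGCGC, and the CCAAT box as CCAAT. Of 110 matches, 1 overlapped a match of another kind. The 250 bases before the start are printed for 4 mitotic and 2 replication members, chosen as mitotic genes that rose, did not pass or fell after TAC and as replication genes with E2F-like letters. Capitals mark CHR and E2F-like matches, and CCAAT boxes are left in lower case.
Cdk1: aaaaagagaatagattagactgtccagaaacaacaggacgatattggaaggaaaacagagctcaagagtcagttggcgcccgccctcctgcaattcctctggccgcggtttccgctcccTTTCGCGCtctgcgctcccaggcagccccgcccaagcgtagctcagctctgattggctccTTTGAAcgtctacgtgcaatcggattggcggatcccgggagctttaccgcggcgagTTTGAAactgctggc
Mki67: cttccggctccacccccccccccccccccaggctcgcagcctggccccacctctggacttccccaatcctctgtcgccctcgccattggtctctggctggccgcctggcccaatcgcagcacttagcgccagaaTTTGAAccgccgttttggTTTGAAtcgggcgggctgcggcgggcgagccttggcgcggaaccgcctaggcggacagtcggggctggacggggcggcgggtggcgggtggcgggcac
Ube2c: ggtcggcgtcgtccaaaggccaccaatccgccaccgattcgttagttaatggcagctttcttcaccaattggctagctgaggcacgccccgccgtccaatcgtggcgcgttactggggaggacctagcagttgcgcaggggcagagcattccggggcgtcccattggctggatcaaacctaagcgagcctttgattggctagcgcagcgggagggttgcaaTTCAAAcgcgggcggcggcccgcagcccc
Cenpf: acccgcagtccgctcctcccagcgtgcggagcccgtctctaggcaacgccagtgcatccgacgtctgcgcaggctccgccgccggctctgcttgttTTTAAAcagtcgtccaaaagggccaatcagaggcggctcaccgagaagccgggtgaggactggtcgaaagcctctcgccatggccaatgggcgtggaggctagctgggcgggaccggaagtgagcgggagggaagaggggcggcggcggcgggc
Mcm5: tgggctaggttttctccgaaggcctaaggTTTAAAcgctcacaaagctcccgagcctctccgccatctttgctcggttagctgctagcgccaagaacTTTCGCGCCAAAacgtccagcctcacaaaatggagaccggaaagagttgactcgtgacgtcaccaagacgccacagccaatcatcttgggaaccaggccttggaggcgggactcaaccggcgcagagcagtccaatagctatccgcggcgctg
Mcm6: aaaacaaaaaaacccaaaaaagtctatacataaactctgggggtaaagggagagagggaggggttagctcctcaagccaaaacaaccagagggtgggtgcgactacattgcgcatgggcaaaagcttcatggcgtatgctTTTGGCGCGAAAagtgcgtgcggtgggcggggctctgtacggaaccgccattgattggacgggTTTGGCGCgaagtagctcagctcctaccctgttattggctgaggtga
The Cdk1 stretch is chr10:69352913-69353162, minus strand. The Mki67 stretch is chr7:135716380-135716629, minus strand. The Ube2c stretch is chr2:164769679-164769928, plus strand. The Cenpf stretch is chr1:189688087-189688336, minus strand. The Mcm5 stretch is chr8:75109259-75109508, plus strand. The Mcm6 stretch is chr1:128359706-128359955, minus strand. Cdk1 is the kinase that drives entry into mitosis, Mki67 encodes the Ki-67 coat of mitotic chromosomes, Ube2c is the ubiquitin-conjugating enzyme of the anaphase-promoting complex, Cenpf is a kinetochore protein, and Mcm5 and Mcm6 are subunits of the replicative helicase.

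CHR letters were present in 17 of 20 mitotic windows (85%), in 5 of 12 replication windows (41.7%) and in 19.1% of the windows of 10757 tested genes. E2F-like letters were present in 1 of 20 mitotic windows, that of Cdk1, in 5 of 12 replication windows (41.7%) and in 4.02% of the windows of tested genes. CCAAT was present in 80% of mitotic, 75% of replication and 38.4% of all tested windows. CHR together with CCAAT was found in 75% of mitotic, 33.3% of replication and 7.54% of all tested windows. The 2 Mcm6 matches that overlap each other lie on opposite strands, as do those of Mcm5. These are matches of letters, not measured binding.

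**Figure D1:**
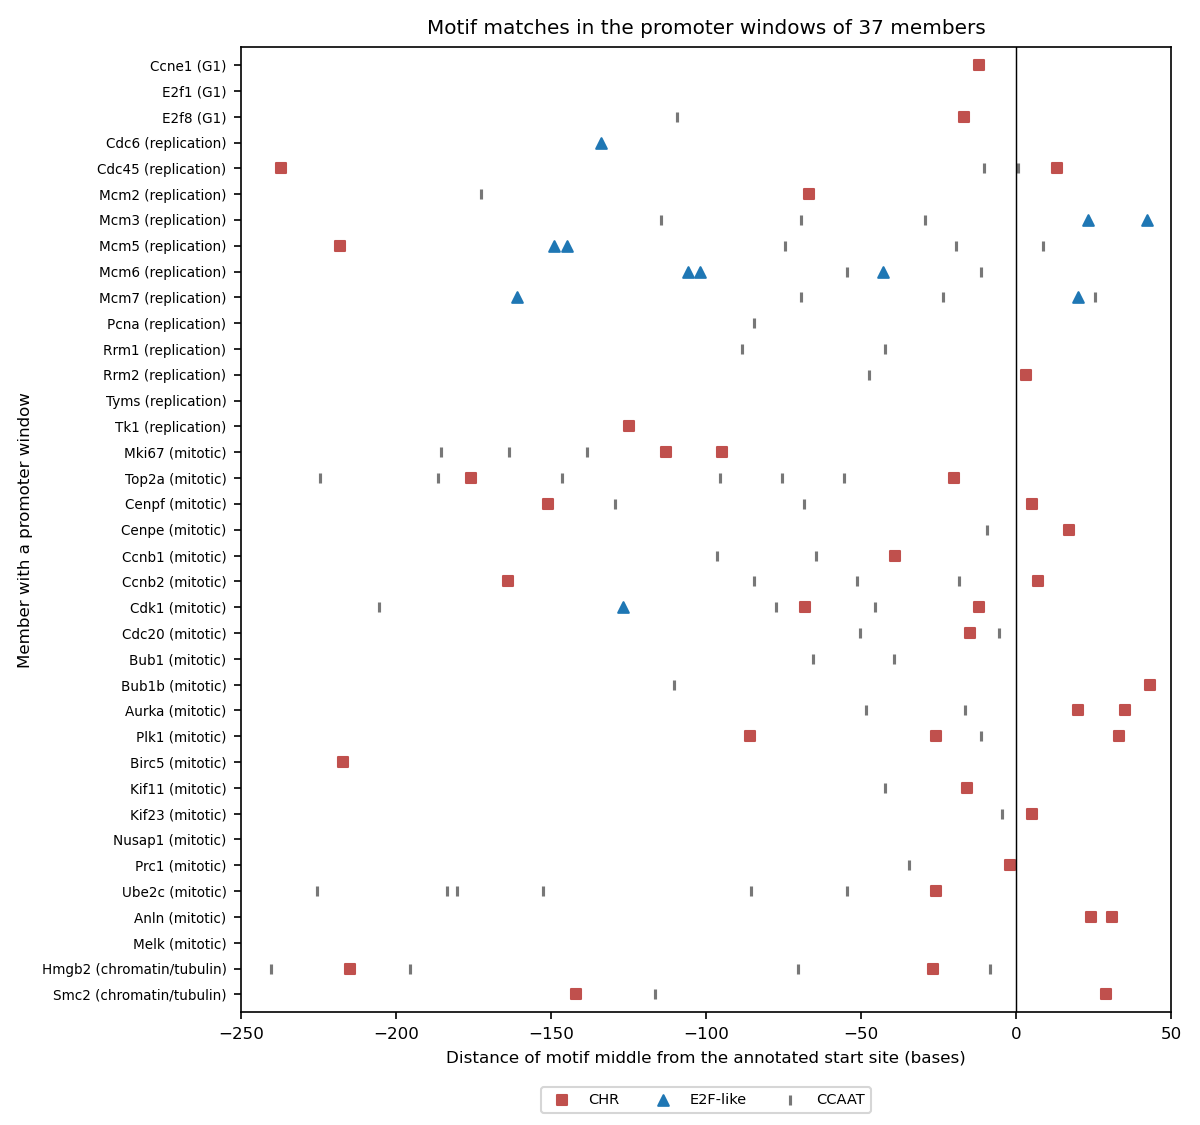
Positions of CHR (squares), E2F-like (triangles) and CCAAT (bars) letter matches in the promoter windows of 37 members, as distance in bases from the annotated start site. CHR matches fill most mitotic rows (17 of 20), and E2F-like matches sit in 5 of 12 replication rows.

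The libraries held 4170660 to 14632231 counts, and the 48 members together took 2754 to 8770 of them. The lowest total was that of Sham/Air replicate 1, a library that stood apart from the rest. Over all tested genes its rank correlation with the other libraries was 0.852 to 0.913, against 0.963 to 0.996 among the other 23. Its deviation from the other Sham/Air libraries fell with GC content over 10755 genes (r = -0.723) and over the 47 members (r = -0.428), and rose with log2 transcript length (r = 0.271 and r = 0.346). Other libraries had GC trends too. Against the mean of all 24 libraries, the rank correlation with GC content was -0.752 in Sham/Air replicate 1 and 0.592 in Sham/Benzene replicate 4. Within TAC/Air it ran from -0.528 in replicate 4 to 0.54 in replicate 3. These are descriptions across genes, which are not independent. The main counts are therefore also given without Sham/Air replicate 1. All 6 Sham/Air libraries also held lung epithelium transcripts at 7.10 to 11.4 summed CPM (read counts scaled for library depth) over 8 marker genes, against at most 2.87 CPM in the other groups. Defining cardiomyocyte markers were high in every library, from 31710 to 56370 summed CPM over 8 genes.

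**Figure D2:**
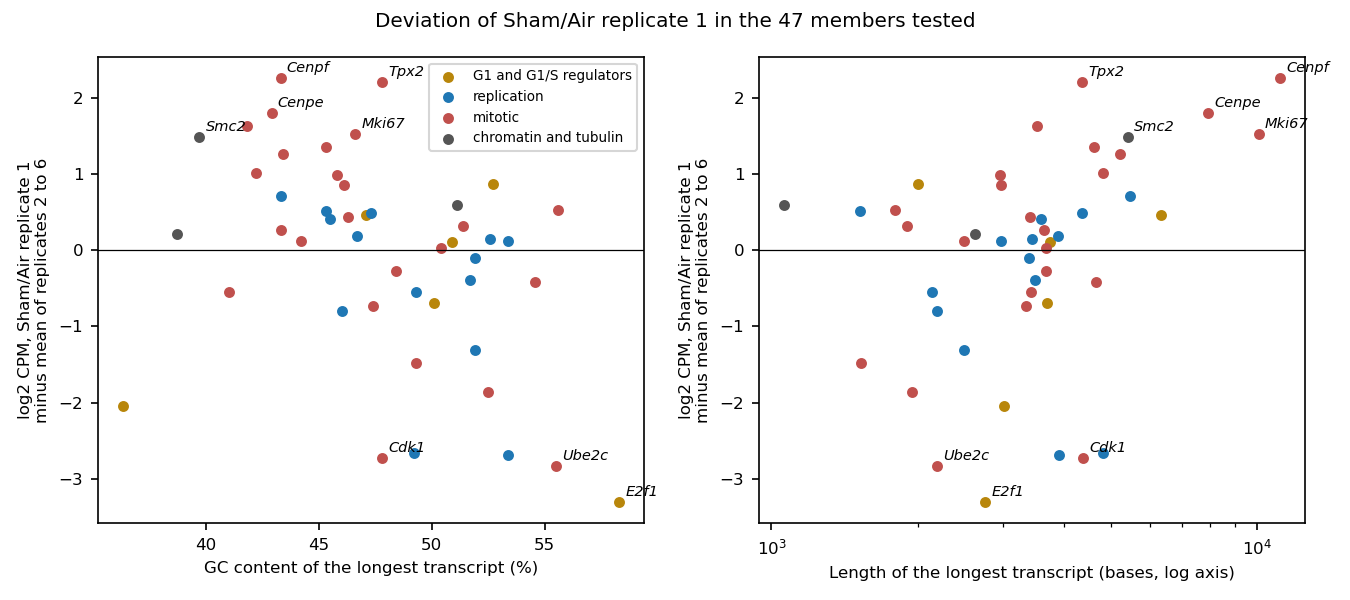
Log2 CPM of Sham/Air replicate 1 minus the mean of Sham/Air replicates 2 to 6 for the 47 members tested, against GC content (left) and length on a log axis (right) of the longest transcript. Long mitotic genes such as Cenpf, Cenpe and Mki67 lie above 0 and Cdk1, Ube2c and E2f1, which had no count in that library, lie below.

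In Sham/Air replicate 1, 8 of 24 mitotic members lay more than 1 log2 unit above the mean of the other 5 Sham/Air libraries and 4 lay more than 1 below. Of the 14 replication members none lay above and 3 lay below by that much. Cenpf was 4.76 times, Tpx2 4.89 times and Mki67 2.90 times the mean of the other 5. E2f1, Cdc6, Gins2, Cdk1, Aurkb and Ube2c had no count there, and 3 counts would have been 0.852 CPM.

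Transcript levels of most members were low. The median member tested stood at 2.83 CPM over the 24 libraries, against 21.7 CPM for all tested genes, and 42 of 47 lay below that level, while Ccnd2 reached 268 CPM in a TAC/Air library. Per kilobase of transcript, the median replication member stood at 2.06, 1.82, 2.43 and 1.93 CPM in Sham/Air, Sham/Benzene, TAC/Air and TAC/Benzene, and the median mitotic member at 0.577, 0.449, 0.756 and 0.677 CPM. In Sham/Air the highest per kilobase were Pcna, the sliding clamp of the DNA polymerases, at 31.8 CPM, and the D cyclins Ccnd1 and Ccnd2, which partner CDK4 and CDK6, both at 26.1 CPM. The lowest was Melk, a mitotic kinase, at 0.161 CPM. Plk1, the polo-like kinase, was the only member too low to test, at 0.607 CPM on average. The lowest that passed were Melk at 0.656, Bub1 at 0.720 and Aurkb at 0.749 CPM.

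After TAC in air, 9 of 47 members were higher and 1 was lower by edgeR's quasi-likelihood test at an adjusted p under 0.05. Among all tested genes 8.81% were higher and 7.35% lower (16.2% in either direction), and with offsets for GC content and length these shares were 11.9% and 15.7%. The median log2 fold change of the members was 0.38, against -0.01 for all genes. Without Sham/Air replicate 1, 14 of 48 members were higher and 1 lower, against 12.1% and 11.1% of all genes. The 10 members called with all libraries were kept, and Anln, Ccnb1, Cenpe, Top2a and Tpx2 were added. Groups did not overlap for 5 members that were higher in TAC/Air (Ccnd1, Rrm2, Tyms, Cdk1 and Ube2c), against 5.78% of all genes, and for 1 that was lower (Cenpf), against 3.71%. Compared with the other 5 Sham/Air libraries, 11 members lay wholly higher in TAC/Air, against 8.24% of all genes, and Cenpf lay wholly lower, against 7.09%.

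Of the 6 regulators of G1, 1 rose after TAC in air, where 8.81% of all tested genes were higher. Ccnd2 ran from 144 to 214 CPM in Sham/Air (median 161) and from 206 to 268 CPM in TAC/Air (median 251). Its log2 fold change was 0.55 ± 0.12 (SE, n = 6 per group, adjusted p = 0.00219). Only Sham/Air replicate 1, at 214 CPM, reached into the TAC/Air range, the next highest being 166 CPM. Ccnd1 ran from 89.9 to 104 CPM in Sham/Air (median 97.2) and from 106 to 114 CPM in TAC/Air (median 110). The groups lay side by side without overlap, and the log2 fold change of 0.18 ± 0.10 did not pass (adjusted p = 0.263). E2f1, an activator of S phase genes, had a log2 fold change of 0.63 ± 0.32 and Ccne1, the cyclin of CDK2, one of 0.20 ± 0.25, and neither passed (adjusted p = 0.197 and 0.643).

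Of the 14 replication members, 4 rose after TAC in air and none fell, with a median log2 fold change of 0.24. Of all tested genes 8.81% were higher and 7.35% lower. Tyms, thymidylate synthase, ran from 1.69 to 3.58 CPM in Sham/Air (median 2.72) and from 4.25 to 6.56 CPM in TAC/Air (median 5.36). All 6 TAC/Air libraries lay above all 6 Sham/Air libraries, with a log2 fold change of 1.08 ± 0.18 (adjusted p = 0.000109). Rrm2, the small subunit of ribonucleotide reductase, ran from 1.42 to 3.31 CPM in Sham/Air (median 2.25) and from 3.61 to 5.16 CPM in TAC/Air (median 4.35). These groups did not overlap either, and the log2 fold change was 0.78 ± 0.20 (adjusted p = 0.00686). The helicase subunits moved less. Mcm6 ran from 11.6 to 20.5 CPM in Sham/Air (median 15.2) and from 18.04 to 21.09 CPM in TAC/Air (median 20.1), a log2 fold change of 0.38 ± 0.11 (adjusted p = 0.0216). The highest Sham/Air value was again replicate 1, and the other 5 were at most 16.7 CPM. Mcm3 ran from 7.65 to 9.09 CPM in Sham/Air (median 8.36) and from 8.65 to 14.1 CPM in TAC/Air (median 10.6). Its groups overlapped at their edges, and its log2 fold change was 0.38 ± 0.11 (adjusted p = 0.0188).

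The other 10 replication members did not pass. Mcm2 had a log2 fold change of 0.08 ± 0.11 and Pcna one of -0.02 ± 0.09 (adjusted p = 0.678 and 0.929). Pcna ran from 43.0 to 64.5 CPM in Sham/Air (median 44.6) and from 44.7 to 51.2 CPM in TAC/Air (median 47.3), so its groups overlapped over nearly the whole TAC/Air range. Tk1, the cytosolic thymidine kinase, had a log2 fold change of -0.36 ± 0.22 (adjusted p = 0.314). The remaining members of that role, Cdc6, Cdc45, Gins2, Mcm4, Mcm5, Mcm7 and Rrm1, ranged from -0.18 in Cdc45 to 0.47 in Cdc6. The call of Mcm3 was lost without TAC/Air replicate 1 (adjusted p = 0.0723) and with offsets for GC content and length, and that of Mcm6 without Sham/Air replicate 5 (adjusted p = 0.0663).

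Of the 24 mitotic members tested, 4 rose after TAC in air and 1 fell, with a median log2 fold change of 0.47, and 23 of 24 had a positive value. Of all tested genes 8.81% were higher and 7.35% lower. With Sham/Air replicate 1 left out, 9 of 25 mitotic members (median 0.61) and 4 of 14 replication members (median 0.25) rose. In that fit 12.1% of all genes were higher and 11.1% lower. Cdk1 ran from 0 to 1.91 CPM in Sham/Air (median 0.840) and from 2.11 to 2.92 CPM in TAC/Air (median 2.40). Every TAC/Air library lay above every Sham/Air library, and the log2 fold change was 1.27 ± 0.33 (adjusted p = 0.00805). Ube2c ran from 0 to 1.37 CPM in Sham/Air (median 1.12) and from 1.42 to 2.62 CPM in TAC/Air (median 2.18), without overlap (log2 fold change 0.98 ± 0.29, adjusted p = 0.0197). Birc5, survivin of the chromosomal passenger complex, ran from 0.138 to 1.20 CPM in Sham/Air (median 0.587) and from 1.09 to 2.73 CPM in TAC/Air (median 1.84). The groups overlapped at their edges, and the log2 fold change was 1.42 ± 0.42 (adjusted p = 0.0203). Foxm1, a transcription factor of late cycle genes, ran from 0.802 to 1.95 CPM in Sham/Air (median 1.12) and from 1.57 to 2.45 CPM in TAC/Air (median 1.87). Its groups overlapped and its log2 fold change was 0.76 ± 0.24 (adjusted p = 0.0313).

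Some of these mitotic calls rested on single libraries. The call of Birc5 was lost without TAC/Air replicate 6 (adjusted p = 0.0520), that of Ube2c without Sham/Air replicate 2 (adjusted p = 0.0576), and that of Foxm1 without any of Sham/Air replicates 2, 4 and 5 and TAC/Air replicates 2 and 5 (adjusted p up to 0.0910). The calls of Cdk1 and Cenpf held with each library left out in turn.

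Cenpf fell, while 23 of the 24 mitotic members had a positive value in air and 22 of 24 in benzene. Its level ran from 24.02 to 145.5 CPM in Sham/Air (median 32.2) and from 22.3 to 59.1 CPM in Sham/Benzene (median 35.4). It ran from 7.20 to 12.3 CPM in TAC/Air (median 9.75) and from 6.96 to 8.35 CPM in TAC/Benzene (median 7.501). Every TAC library lay below every sham library, and per kilobase Cenpf was the most abundant mitotic member in Sham/Air (4.47 CPM). The log2 fold change was -2.29 ± 0.35 in air (adjusted p = 2.44e-05) and -2.33 ± 0.35 in benzene (adjusted p = 1.85e-05), which is 4.91-fold and 5.04-fold lower. Without Sham/Air replicate 1, which held 146 CPM, the value in air was -1.63 ± 0.19 (adjusted p = 1.86e-07) and the value in benzene -2.33 ± 0.18.

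The best known proliferation markers, Mki67 and Top2a, did not pass after TAC in air. Mki67 ran from 5.80 to 20.2 CPM in Sham/Air (median 6.95) and from 8.72 to 11.6 CPM in TAC/Air (median 9.39), with a log2 fold change of 0.17 ± 0.25 (adjusted p = 0.702). Top2a, the topoisomerase that untangles chromosomes, ran from 3.14 to 10.5 CPM in Sham/Air (median 4.77) and from 6.91 to 8.96 CPM in TAC/Air (median 7.27), with 0.59 ± 0.24 (adjusted p = 0.1003). In both genes the highest Sham/Air value was that of replicate 1, and the other 5 libraries reached at most 9.27 CPM for Mki67 and 6.48 CPM for Top2a. Without it the log2 fold change was 0.49 ± 0.19 for Mki67 (adjusted p = 0.0598) and 0.82 ± 0.21 for Top2a (adjusted p = 0.00461). The kinetochore motor Cenpe (0.53 ± 0.35), the cyclins Ccna2 (0.38 ± 0.19), Ccnb1 (0.99 ± 0.35) and Ccnb2 (0.67 ± 0.35), and the passenger kinase Aurkb (1.30 ± 0.45) did not pass with all libraries, with adjusted p from 0.0506 to 0.348. The 3 chromatin and tubulin members did not pass in any comparison with all libraries, with log2 fold changes of -0.10 to 0.25 after TAC in air. Smc2, a condensin subunit that stood in Sham/Air replicate 1 at 2.84 times the mean of the other 5, passed without that library for TAC averaged over both exposures (0.25 ± 0.09, adjusted p = 0.0362).

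**Figure D3:**
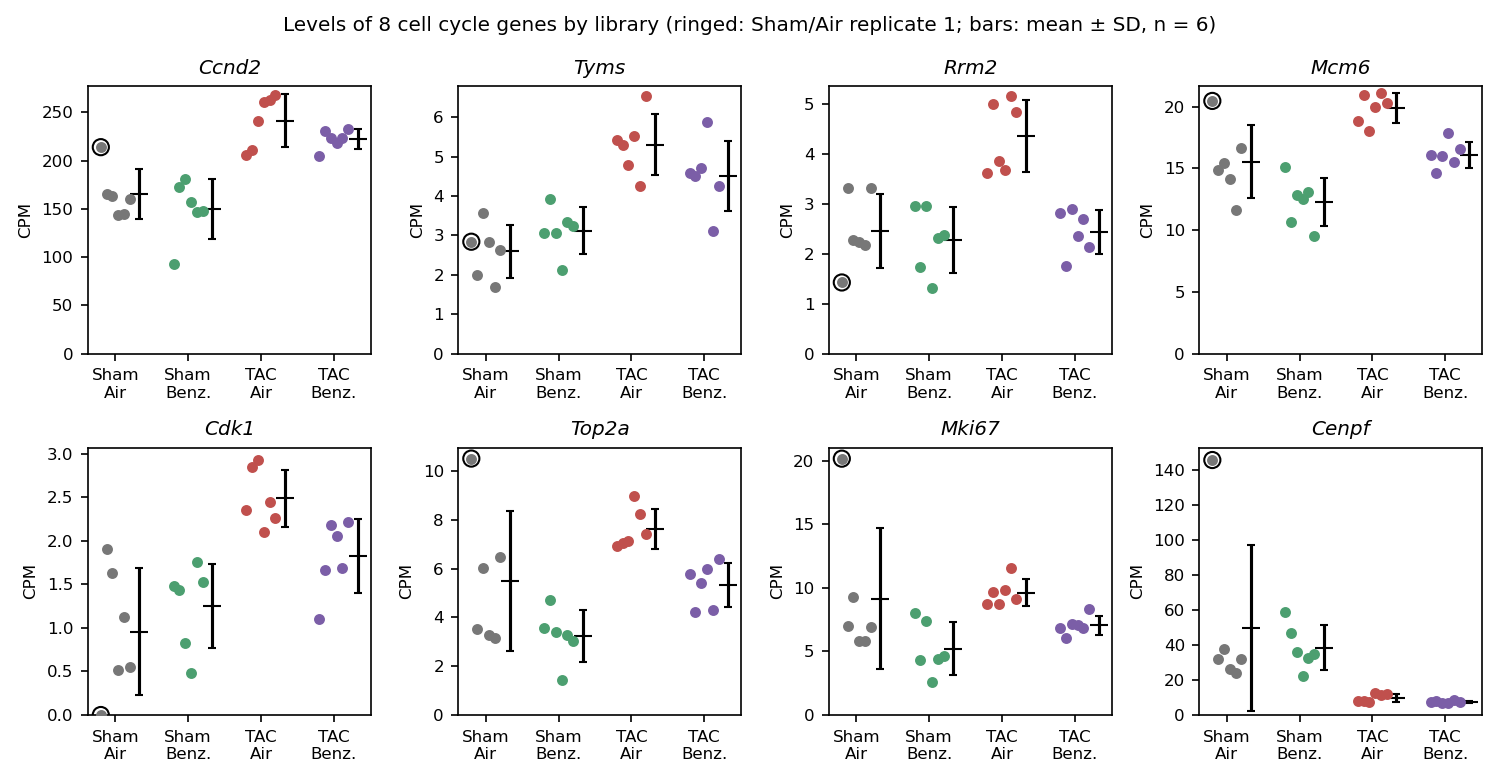
CPM of 8 members in each of the 24 libraries by group, with bars for the mean ± SD of 6 libraries and a ring around Sham/Air replicate 1. Cdk1, Rrm2 and Tyms in TAC/Air lie above all Sham/Air libraries, whereas Cenpf lies lower in all 12 TAC libraries than in all 12 sham libraries.

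After TAC in benzene, 8 of 47 members were higher and 1 was lower, where 8.67% of all tested genes were higher and 7.97% lower (16.6% in either direction). This comparison uses other libraries than the one in air, and both were fitted with 1 shared estimate of the spread. The median log2 fold change was 0.31 for the members and -0.00 for all genes. Without Sham/Air replicate 1, which belongs to neither group here but shares in the estimate of the spread, 14 of 48 members were higher and 1 lower, against 13.6% and 13.2% of all genes. The groups did not overlap for 3 members that were higher (Ccnd2, Kif11 and Tpx2, a spindle assembly factor that did not pass the test), against 7.62% of all genes, and for Cenpf, which was lower, against 6.31%.

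Among the regulators of G1, Ccnd2 rose in benzene too. It ran from 92.7 to 181 CPM in Sham/Benzene (median 153) and from 204 to 233 CPM in TAC/Benzene (median 223). The groups did not overlap, and the log2 fold change was 0.57 ± 0.12 (adjusted p = 0.00140). E2f1 had a log2 fold change of 0.83 ± 0.30 that did not pass (adjusted p = 0.0663). It passed without Sham/Air replicate 1 (adjusted p = 0.0178), without Sham/Benzene replicate 4 (0.0354), with DESeq2 (0.0230), with limma-voom (0.0390) and with offsets for GC content and length (0.0218). Ccnd1 had a log2 fold change of 0.24 ± 0.10 and Ccne1 one of -0.03 ± 0.23.

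Of the 14 replication members, 2 rose after TAC in benzene, and 7 values were positive and 7 negative. Over all tested genes 8.67% were higher and 7.97% lower, so the count of 2 is near that share. Mcm6 ran from 9.51 to 15.1 CPM in Sham/Benzene (median 12.7) and from 14.7 to 17.8 CPM in TAC/Benzene (median 16.0), with a log2 fold change of 0.39 ± 0.11 (adjusted p = 0.0167). Tyms ran from 2.12 to 3.94 CPM in Sham/Benzene (median 3.15) and from 3.12 to 5.88 CPM in TAC/Benzene (median 4.54), with 0.53 ± 0.17 (adjusted p = 0.0324). Both pairs of groups overlapped at their edges. Rrm2 ran from 1.30 to 2.96 CPM in Sham/Benzene (median 2.34) and from 1.74 to 2.88 CPM in TAC/Benzene (median 2.53), so that the TAC/Benzene range lay inside the sham range. Its log2 fold change of 0.11 ± 0.21 did not pass (adjusted p = 0.812), and the same held for Mcm3 at 0.08 ± 0.11 and Mcm2 at -0.18 ± 0.11.

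Of the 24 mitotic members, 5 rose after TAC in benzene and Cenpf fell, with a median log2 fold change of 0.55. Among all tested genes 8.67% were higher and 7.97% lower. With Sham/Air replicate 1 left out, 10 of 25 rose, and the replication count stayed at 2 of 14. Those added were Ccna2 (0.53 ± 0.18), Ccnb1 (1.04 ± 0.38), Cenpe (0.84 ± 0.31), Tpx2 (0.73 ± 0.19) and Ube2c (0.84 ± 0.25). In that fit 13.6% of all genes were higher and 13.2% lower. Anln, the anillin scaffold of the cleavage furrow, ran from 1.10 to 2.88 CPM in Sham/Benzene (median 2.09) and from 2.55 to 5.68 CPM in TAC/Benzene (median 3.31), with a log2 fold change of 0.83 ± 0.26 (adjusted p = 0.0267). Foxm1 ran from 0.384 to 1.10 CPM in Sham/Benzene (median 0.983) and from 0.784 to 1.92 CPM in TAC/Benzene (median 1.60), with 0.83 ± 0.25 (adjusted p = 0.0198). In both genes the groups overlapped at their edges. Kif11, the spindle motor Eg5, ran from 0.717 to 2.21 CPM in Sham/Benzene (median 1.91) and from 2.61 to 2.84 CPM in TAC/Benzene (median 2.75), without overlap and with 0.69 ± 0.24 (adjusted p = 0.0453). Top2a ran from 1.44 to 4.70 CPM in Sham/Benzene (median 3.34) and from 4.21 to 6.39 CPM in TAC/Benzene (median 5.59), with 0.73 ± 0.25 (adjusted p = 0.0415). Its groups overlapped at their edges, as did those of Cdc20, the activator of the anaphase-promoting complex. Cdc20 ran from 0.960 to 2.00 CPM in Sham/Benzene (median 1.36) and from 1.33 to 2.97 CPM in TAC/Benzene (median 2.05), with 0.62 ± 0.21 (adjusted p = 0.0472). Cdk1 (0.55 ± 0.32), Birc5 (0.38 ± 0.41) and Aurkb (0.31 ± 0.45) did not pass, and neither did Mki67 (0.45 ± 0.25, adjusted p = 0.274).

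Several of these calls lay close to the threshold. With each of the 24 libraries left out in turn, the call was lost in 19 fits for Cdc20, 16 for Kif11, 10 for Top2a, 8 for Tyms, 5 for Anln, 3 for Foxm1 and 1 for Mcm6, while those of Ccnd2 and Cenpf held in every fit. The highest adjusted p in these fits was 0.152 for Cdc20, 0.117 for Kif11 and 0.107 for Top2a, and all log2 fold changes of the called members kept their sign. With the replicate number as a block, Cdc20, Top2a and Tyms were lost and Ube2c was added.

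**Figure D4:**
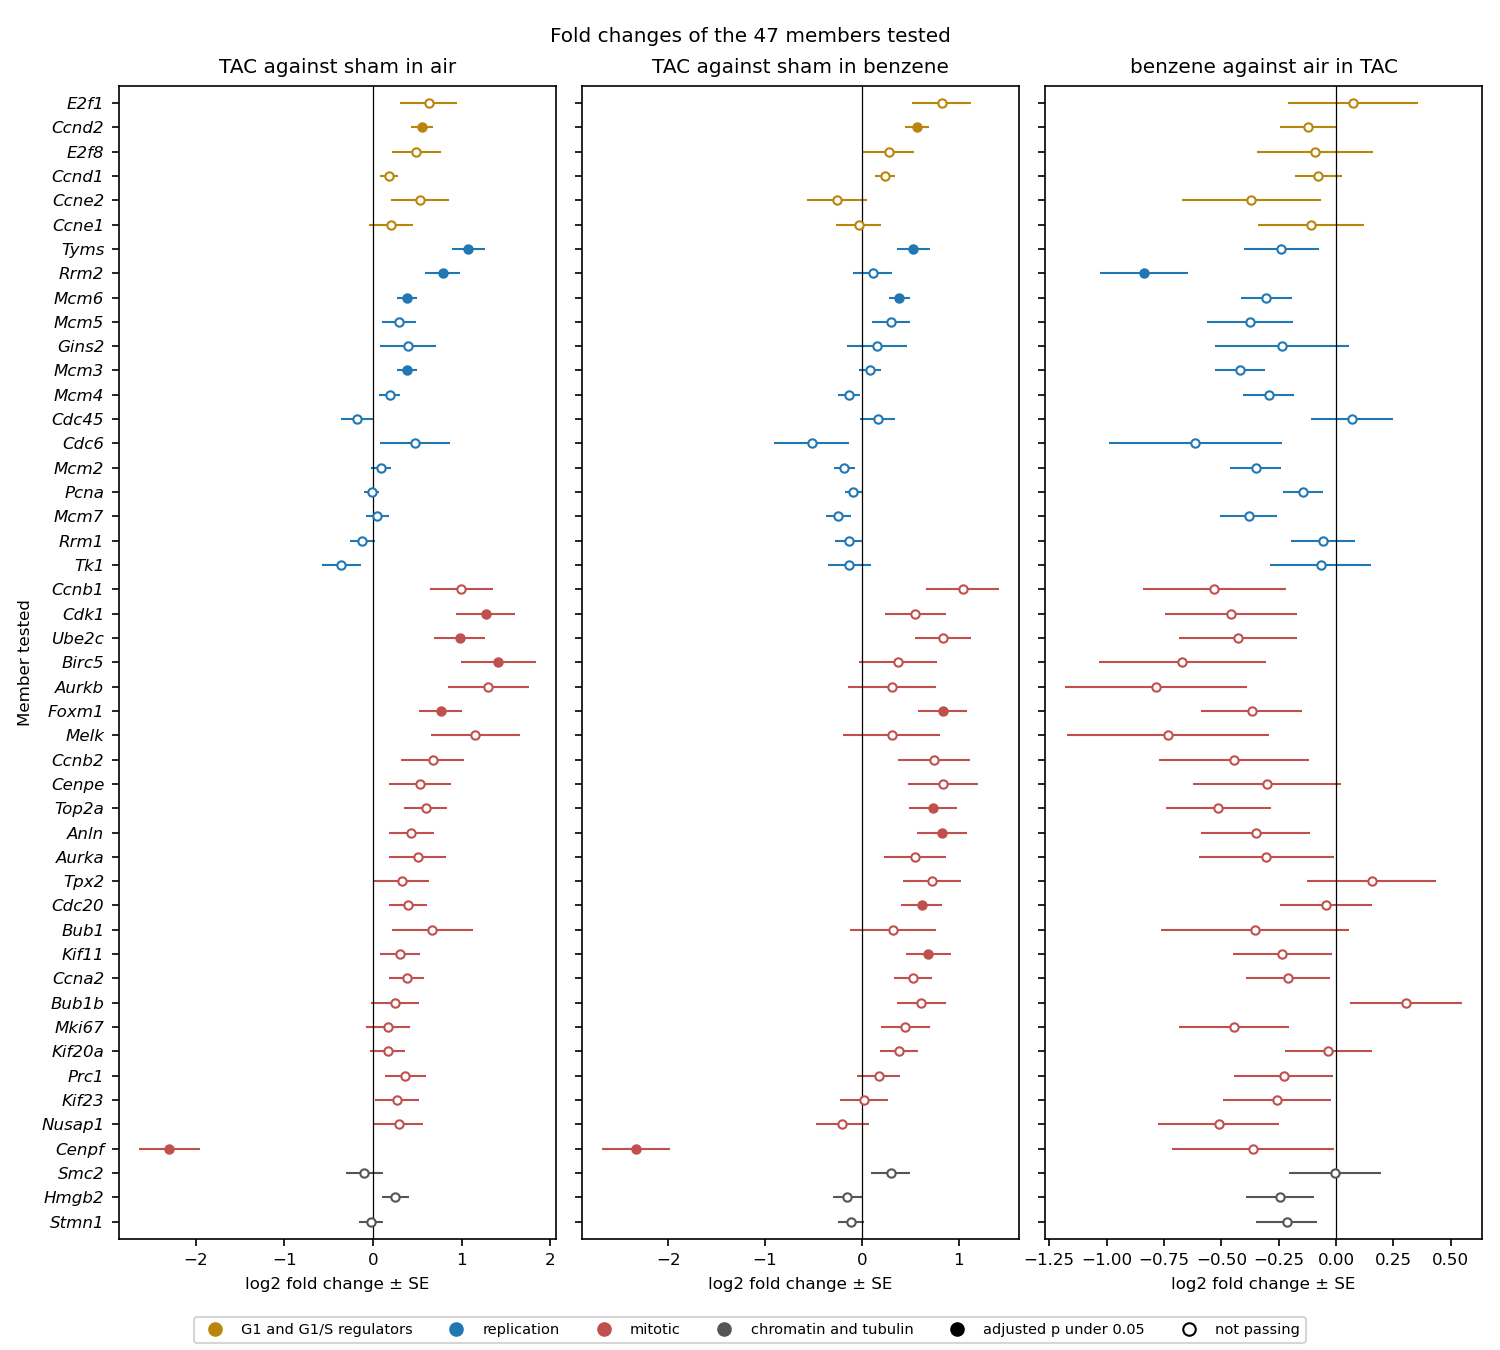
Log2 fold changes with SE of the 47 tested members for TAC in air, TAC in benzene, and benzene in TAC hearts (each panel with its own scale), ordered by role and by the mean TAC effect. Filled points passed the test, Cenpf lies alone at the far left of both TAC panels, and 43 of 47 values lie below 0 in the right panel.

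Averaged over both exposures, with 12 TAC and 12 sham libraries, 19 of 47 members were higher and 1 lower, where 14% of all genes were higher and 13.3% lower (27.3% in either direction). The higher members were 3 regulators of G1 (Ccnd1, Ccnd2 and E2f1), 4 replication genes (Mcm3, Mcm6, Rrm2 and Tyms) and 12 mitotic genes (Top2a, Cenpe, Ccna2, Ccnb1, Ccnb2, Cdk1, Cdc20, Birc5, Kif11, Ube2c, Anln and Foxm1). With each of the 24 libraries left out in turn, the call was lost in 15 fits for Cenpe, 13 for Ccnb2, 7 for Ccnd1, 7 for Mcm3 and 1 for Kif11, with adjusted p up to 0.0882, and the other 15 calls held. Cenpe and Ccnb2 were also lost with the replicate number as a block and without a filter on low counts, Mcm3 without that filter, and Ccnd1, Mcm3 and Cdc20 with offsets for GC content and length. Tyms had 0.80 ± 0.13 (adjusted p = 1.66e-05), Ccnb1 1.02 ± 0.26 (adjusted p = 0.00368) and Ccna2 0.46 ± 0.14 (adjusted p = 0.0138). The median log2 fold change was 0.53 for the 24 mitotic members and 0.01 for the 14 replication members, which split into 7 positive and 7 negative values. Without Sham/Air replicate 1, 23 of 48 were higher and 1 lower, with 15 of 25 mitotic, 4 of 14 replication, 3 of 6 G1 members and Smc2 higher, against 18.5% and 17.9% of all genes.

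The mean log2 CPM of the 14 replication members ran from 2.23 to 2.72 in Sham/Air libraries and from 2.38 to 2.73 in Sham/Benzene. In the TAC groups it ran from 2.82 to 2.97 with air and from 2.48 to 2.70 with benzene. TAC/Air therefore lay above the other 3 groups, whereas TAC/Benzene lay inside the range of the sham groups. The summed CPM of the same members ordered Sham/Air replicate 1 otherwise. It held 181.3 CPM, the highest of the 24 libraries, against 156.7 to 167.5 CPM in TAC/Air. The other Sham/Air libraries reached at most 153.6 CPM. The mean over 23 mitotic members, leaving out Cenpf, ran from 0.55 to 0.92 in Sham/Air and from 0.17 to 0.83 in Sham/Benzene. It ran from 1.23 to 1.45 after TAC with air and from 0.93 to 1.25 after TAC with benzene. Here both TAC groups lay above both sham groups. For TAC/Benzene this held only with Cenpf left out. Once Cenpf was counted, the lowest TAC/Benzene mean (1.02) was below the highest of Sham/Air (1.14) and of Sham/Benzene (1.04). The lowest TAC/Air mean (1.30) was still above both. Summed CPM of the mitotic members, Cenpf among them, did not separate surgery. TAC libraries spanned 57.5 to 82.5 CPM, within the sham span of 49.3 to 228.7 CPM. With Cenpf included, the replication mean minus the mitotic mean was 1.64 ± 0.34 (SD, n = 6) in Sham/Air, 1.81 ± 0.21 in Sham/Benzene, 1.44 ± 0.10 in TAC/Air and 1.46 ± 0.08 in TAC/Benzene. TAC minus sham was -0.20 in air and -0.35 in benzene on the log2 scale. With all libraries the value in air is smaller than the SD of the Sham/Air libraries (0.34), and the value in benzene is larger than the SD of either benzene group. Leaving out Sham/Air replicate 1 changed the value in air to -0.31, which is larger than the SD of the other 5 Sham/Air libraries (0.24). These SDs give the spread of single libraries, not the error of a difference between group means, so they do not test it. Since the members were chosen with earlier results known, no test was made of these means.

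**Figure D5:**
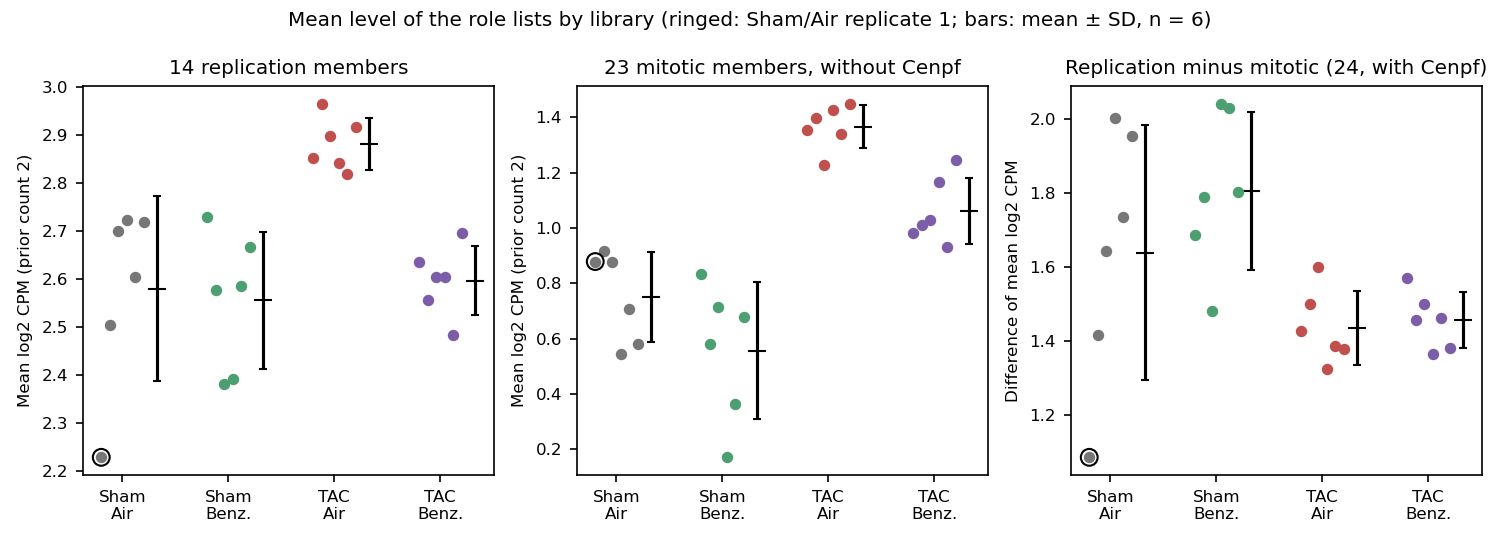
Mean log2 CPM of the replication members, of the mitotic members without Cenpf, and replication minus mitotic with Cenpf, 1 point per library, with the mean ± SD of 6 libraries and a ring around Sham/Air replicate 1. Replication is highest in TAC/Air (2.82 to 2.97), while mitotic levels without Cenpf are higher in both TAC groups than in both sham groups.

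Markers of some other cell types moved with surgery, and those of others overlapped between sham and TAC libraries. Over 8 endothelial markers the level was 1198 to 1533 CPM in the sham and 1250 to 1353 CPM in the TAC libraries. Over 8 smooth muscle and pericyte markers it was 1781 to 3433 CPM in the sham and 1663 to 2008 CPM in the TAC libraries. Summed over 8 fibroblast markers, the level was 3354 to 3902 CPM in the sham libraries, 5121 to 5514 CPM after TAC with air and 4574 to 4858 CPM after TAC with benzene. Over 7 markers of activated fibroblasts it was 149 to 298 CPM in the sham libraries and 1841 to 2069 CPM in the TAC libraries. Over 12 macrophage and monocyte markers it was 656 to 780 CPM in the sham libraries, 763 to 862 CPM after TAC with air and 672 to 705 CPM after TAC with benzene. Cardiomyocyte markers were lower, at 41830 to 56370 CPM in the sham and 31710 to 39130 CPM in the TAC libraries. Over 8 neutrophil markers the level was 42.5 to 51.9 CPM in TAC/Benzene and at most 21.6 CPM in the other groups, with Mpo and Elane at 0 everywhere. B cell markers summed to at most 15.9 CPM and T cell markers to at most 4.21 CPM, and the thymocyte genes Rag1 and Rag2 were at 0 in every library. The part of these cell types in the changes of the members was not tested.

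Benzene against air in the TAC hearts gave 1 lower and 0 higher members of 47, where 0.582% of all genes were called (0.287% lower, 0.295% higher). At an unadjusted p under 0.05, 7 members were lower and 0 were higher, where 3.68% of all genes were lower and 2.49% higher at that p. DESeq2 called 2 members lower and 0 higher (85 and 86 of all 13571 genes), and limma-voom 7 lower and 0 higher (266 and 288 of all genes). The member was Rrm2, at 3.61 to 5.16 CPM in TAC/Air (median 4.35) and 1.74 to 2.88 CPM in TAC/Benzene (median 2.53). All 6 TAC/Benzene libraries lay below all 6 TAC/Air libraries, and the log2 fold change was -0.84 ± 0.19 (adjusted p = 0.0366), which is 1.79-fold lower. The call was lost when any of TAC/Air replicates 2, 3, 5 and 6 or any single TAC/Benzene library was left out, with adjusted p up to 0.135 and log2 fold changes from -0.89 to -0.75. It was also lost with the replicate number as a block and without a filter on low counts. Without Sham/Air replicate 1 it held (adjusted p = 0.0126), and Mcm3 was called as well (-0.42 ± 0.11, adjusted p = 0.0391).

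Of the 47 members, 43 had a negative log2 fold change for benzene in TAC hearts, with a median of -0.30, while all tested genes had a median of 0.00 and split into 6790 positive and 6781 negative. The replication median was -0.30 and the mitotic median -0.36. The groups did not overlap for 5 members that were lower in TAC/Benzene (Mcm2, Mcm6, Rrm2, Mki67 and Top2a), against 1.21% of all genes, and for 0 members that were higher, against 1.5%. Mcm2, a helicase subunit, ran from 9.05 to 11.2 CPM in TAC/Air (median 9.95) and from 6.32 to 8.92 CPM in TAC/Benzene (median 8.09), with -0.35 ± 0.11 that did not pass (adjusted p = 0.265). Mki67 ran from 8.72 to 11.6 CPM (median 9.39) and from 6.10 to 8.34 CPM (median 6.97), with -0.45 ± 0.24 (adjusted p = 0.898). Top2a ran from 6.91 to 8.96 CPM (median 7.27) and from 4.21 to 6.39 CPM (median 5.59), with -0.51 ± 0.23 (adjusted p = 0.705). Both comparisons with TAC/Air share its libraries, so the gain of the members after TAC in air and their values here are not independent.

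In the sham hearts, benzene against air gave 0 of 47 members called by edgeR, by DESeq2 and by limma-voom, where 0.0221% of all genes were called (0.00737% higher, 0.0147% lower). At an unadjusted p under 0.05, 5 members were lower and 0 higher, against 2.64% and 3.09% of all genes, and the median log2 fold change was -0.13. Mki67 had -0.72 ± 0.26 (adjusted p = 0.698), with 2.60 to 8.02 CPM in Sham/Benzene (median 4.52) and 5.80 to 20.2 CPM in Sham/Air (median 6.95), and -0.41 ± 0.20 (adjusted p = 0.860) once Sham/Air replicate 1, the highest of these, was left out. In that fit 0 of 48 members were called, and 3 were lower and 0 higher at an unadjusted p under 0.05, against 2.15% and 3.58% of all genes. Averaged over surgery, edgeR called 0 of 47, DESeq2 1 and limma-voom 3, all lower, where 0.192% of all genes were called by edgeR and 0.354% and 0.693% were lower by the other two. At an unadjusted p under 0.05, 13 members were lower and 0 higher, against 3.72% and 3.52% of all genes. Of the 47 values 42 were negative, with a median of -0.18, while all tested genes split into 6739 positive and 6832 negative. Both counts at that p were the same without Sham/Air replicate 1, and 0 of 48 were called. The surgery by benzene interaction, which asks whether the effect of TAC differed between air and benzene, called 0 of 47 by all 3 tools, where 0.169% of all genes were called by edgeR. At an unadjusted p under 0.05 it gave 2 of 47 members, both lower, against 2.84% of all genes lower and 1.85% higher. They were Rrm2 (-0.67 ± 0.29) and Tyms (-0.54 ± 0.25), a share near that of all genes. Leaving out Sham/Air replicate 1 gave 5 of 48, all lower, against 4.58%, and again 0 called. A difference of the TAC effect between air and benzene was therefore not shown for any member.

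The wider pathway was read from 3 lists of genes outside the members. Of 26 tested genes of G1/S control and CDK inhibitors, TAC raised 4 and lowered 2 in air, and raised 4 and lowered 1 in benzene (median log2 fold change 0.09 and 0.05). Over all tested genes 8.81% were higher and 7.35% lower in air, and 8.67% and 7.97% in benzene, so the share that fell was close to or under that of all genes. The CDK inhibitor Cdkn1a (p21) stood at 17.3 ± 4.63 CPM (SD, n = 6) in Sham/Air, 22.6 ± 4.48 in Sham/Benzene, 29.6 ± 4.78 in TAC/Air and 48.3 ± 3.77 in TAC/Benzene. Its log2 fold change after TAC was 0.74 ± 0.15 in air (adjusted p = 0.00107) and 1.09 ± 0.15 in benzene (adjusted p = 5.5e-06). It was higher with benzene in TAC hearts by 0.71 ± 0.15 (adjusted p = 0.0171), and it was the only gene of the 3 lists that passed for benzene. Cdkn2b (p15) rose by 1.90 ± 0.33 in air and 1.66 ± 0.28 in benzene and Myc by 0.99 ± 0.18 and 1.32 ± 0.17, while Cdkn1c (p57) fell by 0.77 in air (SE 0.16). E2f3 rose by 0.51 ± 0.13 in benzene (adjusted p = 0.00744). With Sham/Air replicate 1 left out, the Cdkn1a value for benzene in TAC hearts was 0.71 (adjusted p = 0.000395), Cdkn1c in air was -0.52, and of 27 genes tested TAC raised 5 and lowered 3 in either exposure. In that fit 12.1% of all genes were higher and 11.1% lower in air, and 13.6% and 13.2% in benzene. The share that fell was again close to or under that of all genes.

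Of 41 other replication genes tested, 1 was higher and 3 were lower after TAC in air, and 0 were higher and 3 lower in benzene (median -0.04 and -0.10), which is no more than the shares of all genes. Timeless, of the replication fork protection complex, rose by 0.47 ± 0.11 in air. Gmnn (geminin, the inhibitor of origin licensing, -0.58 ± 0.14), Rpa1 (single-strand DNA binding, -0.23 ± 0.07) and Dut (dUTPase, -0.49 ± 0.16) fell. Rpa1 and Dut fell in benzene as well, with Prim1, the primase (-0.78 ± 0.20). Of 38 other mitosis genes, TAC raised 6 and lowered 1 in air, and raised 5 and lowered 1 in benzene (median 0.37 and 0.30). Over all genes 8.81% were higher and 7.35% lower in air, and 8.67% and 7.97% in benzene. Cks2, a CDK subunit, rose by 1.51 ± 0.30 in air and 0.94 ± 0.29 in benzene, and Dlgap5, a spindle protein, by 1.31 ± 0.38 and 1.27 ± 0.40. Ncapg of condensin (1.22 ± 0.30) and Racgap1 of the central spindle (0.87 ± 0.23) rose in air. Cdkn3, a CDK-associated phosphatase, rose (1.07 ± 0.32) and Spc24 of the kinetochore fell (-0.87 ± 0.20) in benzene. When Sham/Air replicate 1 was left out, TAC raised 11 and lowered 1 of these mitosis genes in air and raised 7 and lowered 2 in benzene. Of all genes 12.1% were then higher and 11.1% lower in air, and 13.6% and 13.2% in benzene. Sgo2a, a protector of centromere cohesion, was lower in air with all libraries (-0.76 ± 0.26); without that library its value there was -0.36 (adjusted p = 0.145), and it passed in benzene at -0.68 (adjusted p = 0.00210). Of the other replication genes, TAC then raised 1 and lowered 4 in air and raised 1 and lowered 5 in benzene. These counts were no more than the shares of all genes in that fit, where Gmnn in air was -0.35 (adjusted p = 0.000309).

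The counts of some members are uncertain in what they hold. In the GENCODE vM21 annotation, exons of 18 of the 48 members share bases with exons of another gene, on the other strand in 15. Ube2c shares 592 bases with Tnnc2, Ccna2 510 bases with Exosc9 and Gins2 2758 bases with Gse1, and the strand setting of the counting is not given in the sources used here. Pcna, Tyms, Ccnb1 and Ccnb2 have named pseudogenes with which reads can be shared.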

How the data were processed

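Poly-A RNA was sequenced as paired-end reads on a NovaSeq instrument, per the labels' protocols. The authors deposited whole-number read counts per gene symbol, without normalization, for 24 libraries. Tools named in the submitters' processing notes are STAR, FastQC 0.11.9 and DESeq2, with the mm9 build. What counted the reads, on which annotation and with which strand setting, is not given in the sources used here. Groups and replicate numbers came from the sample titles.

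The members and lists were chosen with earlier results of these data known. Genes passed edgeR's expression filter (minimum count 10, minimum total 15), which left 13571 of 25229, and the genes left out held 0.0747% of counts. After TMM scaling, 1 quasi-likelihood model of edgeR 4.0.16 (R 4.3.3), with a coefficient for each group, was fitted over all 24 libraries. It gave 7 contrasts, with calls at an adjusted p (Benjamini-Hochberg, over all tested genes) under 0.05. Standard errors were derived from each fold change with its F statistic. Log2 CPM used a prior count of 2. The longest transcript in GENCODE vM21 gave GC content and length for 98.5% of tested genes. On counts simulated for TAC in air, edgeR recovered 85% of 100 genes changed by 1 log2 unit and 98% of 100 changed by 2. It made 7 false calls with 13449 genes tested. The simulation held no GC trend and drew its changed genes over all levels, so it does not speak to members at low levels. Values are given for each member called in a contrast and for a fixed set of 19 members, and for up to 4 called genes of each pathway list and contrast with the smallest p. Members at the edge of the filter are named too. Tpx2, Smc2 and the members given only by range fall outside that rule and were named after their values were seen. Sgo2a met the rule only for TAC averaged over both exposures. Alternatives were DESeq2 1.42.0, limma-voom 3.58.1 with quality weights, relative log expression factors, no filter, a replicate block, offsets for GC content and length, and each library left out.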

Additional observations from a re-analysis of the deposited data

Results flagged for a closer look

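In groups of 6 libraries, a library was noted when the gap to its nearest neighbour took a larger part of the group's range than Dixon's criterion allows. Of 116 groups of values examined for 26 members and the role means, 11 gave such a library, where chance gives about 1 in 20.

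Sham/Air replicate 1 was the far library in 7 of them, always as the highest. It held 213.9 CPM of Ccnd2 (next highest 165.6), 64.49 CPM of Pcna (49.05), 20.17 CPM of Mki67 (9.273), 145.5 CPM of Cenpf (37.91), 4.262 CPM of Cenpe (1.464), 4.83 CPM of Ccna2 (2.908) and 7.671 CPM of Anln (4.067). The same library had the lowest total count, and its levels fell with GC content, as given above. The part of either in these values was not tested.

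TAC/Air replicate 4 was highest for Ccna2 at 5.612 CPM (3.56) and for Kif11 at 4.599 CPM (3.121). Levels in that library also fell with GC content (rank correlation -0.528), and the part of this in the 2 values was not tested. Sham/Benzene replicate 4 was highest for Ccne1 at 2.467 CPM (1.593). TAC/Benzene replicate 4 was lowest for Foxm1 at 0.784 CPM (1.517).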

How the results depend on the processing

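Members called higher after TAC in air numbered 9, and 16 with limma-voom, 17 with offsets for GC content and length without Sham/Air replicate 1, and 7 to 14 with single libraries left out. Of all genes, 1195 of 13571 were higher, and 1933 with limma-voom. Of 13665 genes, 1922 were higher with those offsets, and 1652 with only Sham/Air replicate 1 left out. Members called higher after TAC in benzene numbered 8, and 16 with limma-voom, 5 without a filter on low counts, 15 with offsets without Sham/Air replicate 1, and 3 to 14 with single libraries left out. The lowest count, 3, came without TAC/Benzene replicate 3, and counts of 4 or 5 without Sham/Benzene replicates 1, 4, 5 and 6, TAC/Air replicate 5 and TAC/Benzene replicates 1, 4 and 6. Of all genes, 1176 of 13571 were higher, 2335 with limma-voom, and 1087 of 19551 without the filter. Of 13665 genes, 2210 were higher with offsets without Sham/Air replicate 1, and 1864 with only that library left out. Members called lower after TAC in benzene numbered 1, and 2 with limma-voom, against 1081 and 2144 of all 13571 genes. For benzene in TAC hearts, 1 member was lower, and 2 with DESeq2, 7 with limma-voom, 0 without the filter, 0 with the replicate block, 2 with offsets, 5 with offsets without Sham/Air replicate 1, and 0 to 2 with single libraries left out. Of all 13571 genes 39 were lower, and 85 with DESeq2, 266 with limma-voom, 22 with the replicate block and 120 with offsets. Without the filter 35 of 19551 were lower. Of 13665 genes, 288 were lower with offsets without Sham/Air replicate 1, and 113 with only that library left out. Averaged over surgery, 0 members were lower, and 1 with DESeq2, 3 with limma-voom, 2 with offsets and 4 with offsets without Sham/Air replicate 1. Here 9 of all 13571 genes were lower, and 48 with DESeq2, 94 with limma-voom and 68 with offsets. With offsets without Sham/Air replicate 1 the number was 150 of 13665. The cause of these shifts was not tested.

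Values of members that changed sign were all small and never called. Mcm2 after TAC in air was -0.002661 with offsets. Pcna after TAC in air was 0.05277 with limma-voom, 0.03869 with offsets, 0.05615 with offsets without Sham/Air replicate 1, and -0.05249 to 0.07629 with single libraries left out, changing sign without Sham/Air replicate 1 or TAC/Air replicate 3 (0.001652). Rrm2 after TAC in benzene was -0.02354 without Sham/Benzene replicate 4, and up to 0.1985 with others left out. The Top2a interaction was -0.07722 with limma-voom, -0.002226 with offsets without Sham/Air replicate 1, -0.0302 without Sham/Benzene replicate 4, and -0.08482 (without Sham/Air replicate 1) to 0.2764 with single libraries left out. Of the gene values recomputed, 2368 kept direction and side of the threshold, 80 gained and 145 lost a call, and 11 changed sign.

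Over all genes, calls after TAC in air were 1195 higher and 998 lower, and 1612 and 2129 with offsets for GC content and length together. Totals in air, benzene and benzene in TAC hearts of 2193, 2257 and 79 became 3734, 4479 and 554 with limma-voom.

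Same-numbered libraries did not deviate together as a rule (36 pairs, r from -0.529 to 0.466, median -0.0488, 9 over 0.1). Of 72 matches, 8 were best with their own number. In both sham groups the rank correlation with GC content was negative in replicates 1 to 3 and positive in replicates 4 to 6. In TAC/Air these signs were reversed, and the cause was not tested. With the replicate block, 8 members were higher after TAC in air and 6 in benzene, against 1065 and 1038 of all 13571 genes. Members under about 1 CPM rest on few counts, and how large a change could be detected at that level was not measured.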
